A study of Mus musculus with 6 samples.

Results

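Fibroblasts build connective tissue by secreting glycoproteins, enzymes and proteoglycans that assemble outside the cell into fibers. The 10 genes described here are non-collagen genes of that kind, chosen by name as genes expected from feeder cells: *Fn1*, *Fbn1*, *Sparc*, *Postn*, *Fstl1*, *Lox*, *Dcn* and *Lum*, whose products are secreted, and *Thy1* and *Pdgfrb*, whose products sit on the cell surface. They are 10 of the 55385 genes for which reads were counted, and each name matched 1 gene. The RNA came from mESCs, mouse embryonic stem cells, kept in medium with LIF on CD1 feeder cells, so a library can hold RNA of both cell populations. The wild-type line was G4, from a cross of 129/Sv and C57BL/6 mice. From it, Cas9 editing removed the *Wnt6* loop anchor, a region that contacts distant Polycomb-bound genes, on 1 allele (mESC Wnt6 Heterozygous Deletion, het below) or on both (mESC Wnt6 Homozygous Deletion, homo below), and unedited cells are WT.

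Each of the 3 genotypes has 2 replicate libraries, although the study's methods speak of triplicates. How many clones or separate cultures the replicates stand for is not given in the sources used here, so p-values measure the spread between these libraries, which may be technical, and an effect of the deletion cannot be told apart from a difference between clones or culture dishes. The libraries hold between 23813912 and 28964706 counts, and 3 counts, taken as the floor, correspond to between 0.102 and 0.131 CPM. CPM here are counts divided by a library total that TMM scaling corrects for composition. A minimum of 10 counts in 2 or more libraries left 16951 genes, which were tested with edgeR's quasi-likelihood test in one fit of all 6 libraries. A gene is said below to have passed both thresholds where it changed by more than 1 on the log2 scale with an adjusted p under 0.05 (Benjamini-Hochberg, over all genes tested). Log2 fold changes are given ± the standard error (SE) of that fit.

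In connective tissue, fibronectin fibrils are laid down early and guide the assembly of collagen fibers and of fibrillin microfibrils. Lysyl oxidase cross-links collagen and elastin, small leucine-rich proteoglycans such as decorin and lumican bind collagen fibrils and limit their width, and matricellular proteins such as SPARC and periostin tune how cells attach to the matrix. Embryonic fibroblasts, the usual feeder cells, are known for high expression of many of these genes, and stem cells and endoderm cells can also make fibronectin and SPARC.

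The label was checked against the levels in WT cells. Compared per length of gene, in TPM, the members spanned more than 3 orders of magnitude. *Fn1* was at 511 ± 26.5 TPM and *Sparc* at 451 ± 9.89 (SD, n = 2), above 98.8% and 98.7% of the 28610 genes that had a read in WT. *Lox* followed at 187 ± 0.794 TPM and *Fstl1* at 128 ± 3.52, then *Thy1* at 28.5 ± 1.65, *Fbn1* at 23.0 ± 0.415 and *Pdgfrb* at 11.1 ± 0.607 (SD, n = 2 each). *Dcn* was at 0.987 ± 0.152 TPM, *Postn* at 0.836 ± 0.235 and *Lum* at 0.239 ± 0.0171 (SD, n = 2 each), at the 43.8, 41.8 and 25.9 percentile of the same genes. Of neighbours in this order, *Dcn* and *Postn* were the only ones in WT cells whose libraries overlapped. In het and homo cells *Sparc* came before *Fn1*, and in homo cells *Fstl1* (89.6 ± 2.57 TPM) came before *Lox* (70.3 ± 0.544) and *Fbn1* (13.2 ± 0.716) before *Thy1* (10.5 ± 0.186; SD, n = 2 each), in every case without overlap. With the longest transcript as gene length in place of all exonic bases, *Sparc* came before *Fn1* and *Postn* before *Dcn* in WT cells, and the other 6 members kept their places. By that length *Fstl1* came before *Lox* in het cells too. *Sparc* came before *Fn1*, and *Thy1* before *Fbn1*, in all 3 genotypes. The exchange of *Fn1* and *Sparc* and that of *Fbn1* and *Thy1* therefore depend on the length used.

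So 3 of the 10 names, *Dcn*, *Postn* and *Lum*, which are among the usual markers of fibroblasts, were the least abundant members. Each had a WT mean under 1 TPM by all exonic bases, though *Postn* was at 1.02 TPM by its longest transcript. *Col1a1* and *Prrx1*, in contrast, were well measured. *Col1a1*, the main chain of type I collagen, had 12477 and 10423 WT counts, and *Prrx1*, a transcription factor of limb and body wall mesenchyme, had 719 and 584. *Fap*, a protease of activated fibroblasts, had at most 5 counts in any library. *Tcf21*, a transcription factor of fibroblasts of inner organs, had at most 2. The members therefore cover genes of widely different abundance in these libraries.

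Every one of the 10 members had both homo libraries below both WT libraries, a separation that 29.4% of all tested genes showed in that direction. The 10 include *Lum*, which was too scarce to be tested, with 5 and 4 WT counts and 2 and 2 homo counts. Of the 9 members with enough counts for the test, 4 were lower past both thresholds in the homozygous deletion, where 1.86% of all tested genes were, and all 9 were lower at an adjusted p under 0.05 whatever the fold, where 10.5% were. Their median log2 fold change was -0.98, beside -0.0061 over all genes tested. The members that passed both thresholds with edgeR were *Thy1*, *Lox*, *Pdgfrb* and *Postn*. DESeq2 called 3 members past both thresholds, without *Postn*, and 7 at an adjusted p alone. Each tested member had at least 19 counts in every library, so none entered the test through WT cells alone. The counts are from bulk RNA, in which fewer cells of a type and less RNA per cell cannot be told apart.

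**Figure D1:**
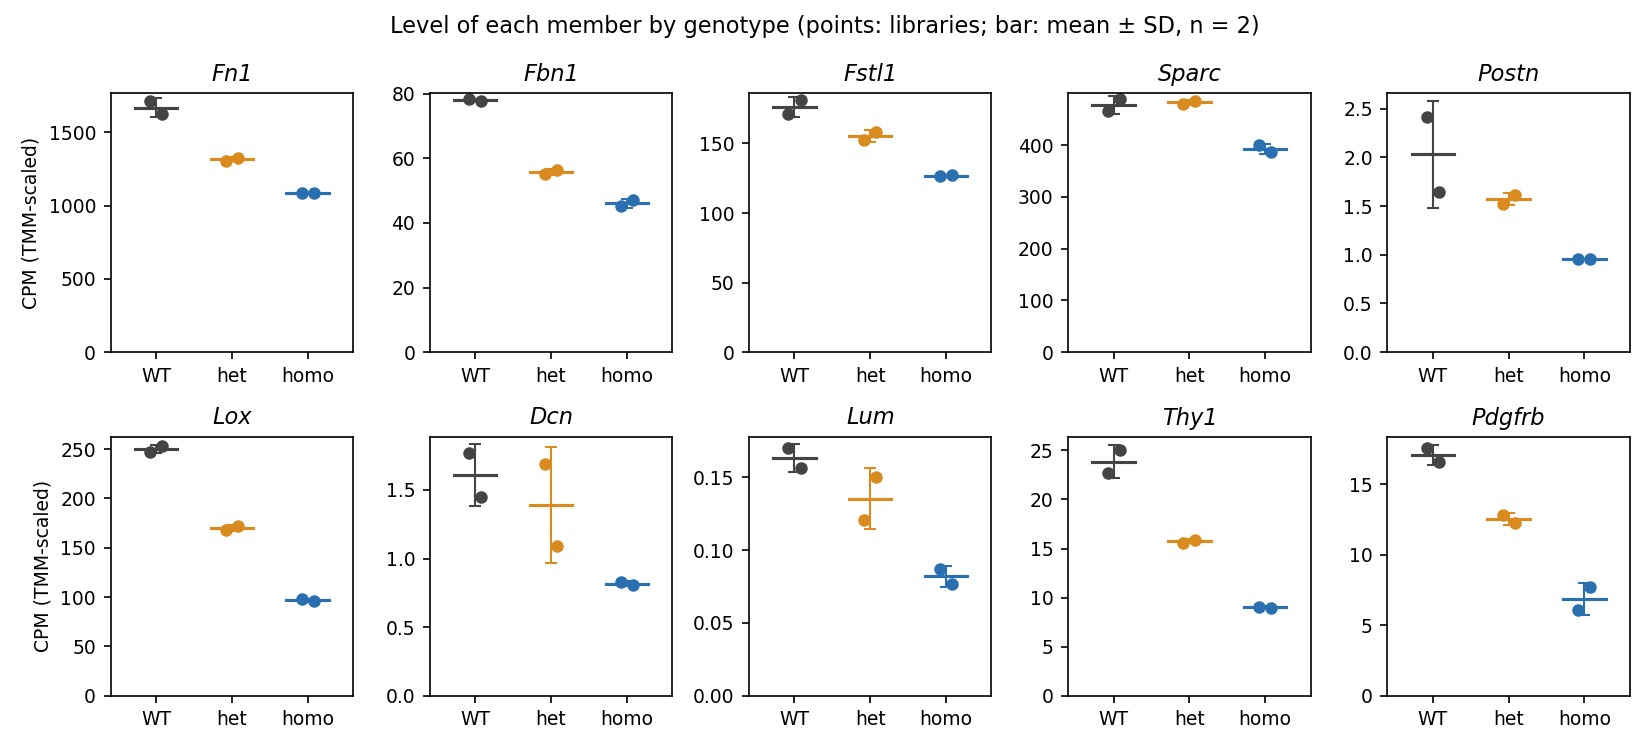
Level of the 10 members in CPM after TMM scaling (vertical axis, from 0, with its own range for each gene) in wild-type (WT), heterozygous (het) and homozygous (homo) deletion libraries. Points are libraries, horizontal bars means and error bars SD (n = 2); the homo libraries are lowest for every member, and *Sparc* and *Dcn* are the members whose heterozygous and WT libraries overlap.

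Among the fiber-forming glycoproteins, *Fn1* (fibronectin, chromosome 1 of GRCm38, 71585520 to 71653200, minus strand) gave the most reads of any member. It was at 1714 and 1623 CPM in WT, 1307 and 1327 CPM in het and 1083 and 1089 CPM in homo libraries. The 3 genotypes formed separate steps that were wide compared with the gaps between replicates. Against wild-type the log2 fold change was -0.34 ± 0.0393 (SE; edgeR adjusted p = 1.35e-05) for het and -0.62 ± 0.0394 (SE; edgeR adjusted p = 6.79e-10) in the homozygous deletion, by edgeR with Benjamini-Hochberg adjustment as for all members. *Fn1* lies on the chromosome that carries the deletion. *Fbn1* (fibrillin-1, the backbone of microfibrils, chromosome 2, 125300594 to 125507993, minus strand) was at 78.3 and 77.8 CPM in WT, 55.2 and 56.5 CPM in het and 45.2 and 47.1 CPM in homo libraries. Most of its decrease was already present in het cells, where the log2 fold change was -0.48 ± 0.0506 (SE; edgeR adjusted p = 4.93e-06), and it reached -0.76 ± 0.0519 in homo cells (SE; edgeR adjusted p = 2.08e-09). Neither gene passed the fold threshold in either deletion.

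Of the secreted regulators, *Sparc* (osteonectin, a collagen-binding glycoprotein, chromosome 11, 55394500 to 55423183, minus strand) changed least. Its levels were 465 and 489 CPM in WT, 479 and 486 CPM in het and 399.9 and 386 CPM in homo libraries. The het libraries lay inside the wild-type range, with a log2 fold change of 0.016 ± 0.0413 (SE; edgeR adjusted p = 0.912). Both homo libraries were lower, by 0.28 ± 0.0415 (SE; edgeR adjusted p = 4.61e-05), or 82.4% of the wild-type mean. *Fstl1* (follistatin-like 1, a secreted glycoprotein, chromosome 16, 37776873 to 37836514, plus strand) was at 171 and 181 CPM in WT, 152 and 158 CPM in het and 126 and 127 CPM in homo libraries. It decreased in the homozygous deletion by 0.47 ± 0.0456 (SE; edgeR adjusted p = 1.90e-07). In the heterozygous deletion it fell by 0.18 ± 0.0449 in log2 (SE; edgeR adjusted p = 0.0224). That call was lost without WT replicate 2 (edgeR adjusted p = 0.343) and without het replicate 1 (0.189) or 2 (0.0700).

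*Postn* (periostin, which binds fibronectin and collagen, chromosome 3, 54361109 to 54391037, plus strand) was a member of few counts. It had 71 and 42 WT counts, 38 and 43 het counts and 22 and 25 homo counts. In CPM these were 2.41 and 1.64, then 1.53 and 1.61, then 0.960 and 0.960, and the WT libraries were the farthest apart. In homo cells *Postn* fell by 1.09 ± 0.265 in log2 (SE; edgeR adjusted p = 0.00532). Without WT replicate 1, the library with 71 counts, the log2 fold change was -0.77 (edgeR adjusted p = 0.148), and DESeq2 gave -1.08 (adjusted p = 0.0514). In the heterozygous deletion the value was -0.38 ± 0.236 (SE; edgeR adjusted p = 0.463), which was not detectable as a difference at this depth. RefSeq promoters (GRCm38.p6) were listed for 4 of the members, *Sparc*, *Postn*, *Fbn1* and *Fstl1*. The 200 bases before the *Postn* start site are shown because, of these, only *Postn* had no annotated exon there. RefSeq lists another *Postn* start 1842 bases upstream of the annotated gene, and the one shown lies 2 bases from the annotated start. The bases are at chr3:54360907-54361106, plus strand, and are written 5′ to 3′ with the matching motif in capitals.
*Postn* promoter: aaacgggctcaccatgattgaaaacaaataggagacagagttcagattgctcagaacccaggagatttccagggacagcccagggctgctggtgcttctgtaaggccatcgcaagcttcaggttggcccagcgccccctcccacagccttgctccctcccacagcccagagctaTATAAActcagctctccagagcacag
The motifs searched on both strands, from 250 bases before to 50 after the start, were TATAAA (the core of the TATA box), CCAAT (bound by NF-Y), GGGCGG (bound by SP factors), TGACGTCA (the cAMP response element), TGANTCA (bound by AP-1), GGAATG (bound by TEAD factors) and the CArG box (bound by SRF). TATAAA began 26 bases before the start and was the only match in this window. Of the 32851 listed promoters, 13.6% hold TATAAA on either strand.

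*Lox* (lysyl oxidase, chromosome 18, 52516067 to 52529867, minus strand), the enzyme of the group, had the lowest adjusted p of the members in each deletion. Its levels were 247 and 253 CPM in WT, 168 and 172 CPM in het and 97.9 and 95.5 CPM in homo libraries. The genotypes were far apart compared with the replicates, and the homozygous mean was 38.7% of the wild-type mean. The log2 fold change was -0.55 ± 0.0422 (SE; edgeR adjusted p = 8.01e-08) for het and -1.37 ± 0.0440 (SE; edgeR adjusted p = 5.16e-14) in the homozygous deletion. A gene without a symbol of its own, AC161119.1, overlaps *Lox* on the other strand and held 87 and 53 counts in WT libraries where *Lox* held 7261 and 6468. Whether the authors counted by strand is not given in the sources used here.

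The proteoglycan genes *Dcn* (decorin, chromosome 10, 97479609 to 97518143, plus strand) and *Lum* (lumican, 97565128 to 97572703 of the same chromosome, plus strand) are neighbours and were both scarce. *Dcn* had 52 and 37 WT counts, 42 and 29 het counts and 19 and 21 homo counts. Wild-type and het libraries overlapped, and both homo libraries lay below them. Against WT, *Dcn* changed by -0.98 ± 0.294 in homo cells (SE; edgeR adjusted p = 0.0213). Its value in het cells was -0.23 ± 0.260 (SE; edgeR adjusted p = 0.746). The homozygous value lay close to the fold threshold and the call at adjusted p alone was not stable. It was lost with DESeq2 (adjusted p = 0.135), without WT replicate 1 (edgeR adjusted p = 0.188) and without homo replicate 2 (0.0580). *Lum* had 5 and 4 WT counts, 3 and 4 het counts and 2 and 2 homo counts, too few for the test. Its homozygous level was 0.499 times the wild-type level (exact 95% interval 0.112 to 1.79, from the summed counts and for counting error only), so a difference was not detectable at this depth.

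Both surface members fell by more than a factor of 2 in the homozygous deletion. *Thy1* (a small glycoprotein anchored in the membrane by a lipid, chromosome 9, 44043384 to 44048579, plus strand) was at 22.65 and 25.0 CPM in WT, 15.6 and 15.9 CPM in het and 9.08 and 8.99 CPM in homo libraries. Its log2 fold change was -0.60 ± 0.0793 (SE; edgeR adjusted p = 6.46e-05) for het and -1.40 ± 0.0876 (SE; edgeR adjusted p = 5.61e-10) for homo, the lowest value of any tested member in both. *Pdgfrb* (the platelet-derived growth factor receptor of fibroblasts and pericytes, chromosome 18, 61045150 to 61085061, plus strand) was at 17.5 and 16.6 CPM in WT, 12.8 and 12.2 CPM in het and 6.065 and 7.68 CPM in homo libraries. The 2 homo libraries differed from each other by more than those of *Thy1*, and both stayed below every heterozygous library. *Pdgfrb* fell by 0.45 on the log2 scale in the heterozygous deletion (standard error 0.0946, edgeR adjusted p = 0.00643) and by 1.30 in the homozygous deletion (standard error 0.106, edgeR adjusted p = 1.68e-08). The heterozygous call was lost without WT replicate 1 (edgeR adjusted p = 0.115) or het replicate 2 (0.0939).

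In the heterozygous deletion as a whole, 0 of the 9 tested members passed both thresholds with edgeR, beside 0.124% of all tested genes in the lower direction. Both deletions were compared with the same WT libraries. At an unadjusted p under 0.05 were 6 members, and DESeq2 also called 0 but gave no adjusted p for *Postn* and *Dcn*. At an adjusted p alone 6 were lower, *Thy1*, *Lox*, *Fbn1*, *Pdgfrb*, *Fn1* and *Fstl1*, where 2.91% of all tested genes were. Both het libraries lay below both WT libraries in 8 of the 10 members, beside 24.0% of tested genes. The 8 include untested *Lum*, with 5 and 4 WT counts and 3 and 4 het counts, near the floor. The median log2 fold change of the 9 was -0.38, against 3.7e-06 over all genes.

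The homozygous and heterozygous deletions were compared directly, which tests whether the 2 deletion lines differ. Both homo libraries lay below both het libraries for all 10 members, untested *Lum* near the floor included, beside 32.8% of tested genes. For 7 of the 9 tested members the homo level was lower at an adjusted p under 0.05, beside 12.9% of all tested genes. No member passed both thresholds with edgeR (0 of 9, with 9 at an unadjusted p under 0.05, and 0 with DESeq2), where 0.897% of tested genes did in that direction. DESeq2 gave no adjusted p for *Dcn* and *Postn* here. *Pdgfrb* had a log2 fold change of -0.86, *Lox* of -0.82 and *Thy1* of -0.80. *Fn1*, *Fbn1*, *Fstl1* and *Sparc* lay close together, between -0.30 and -0.28. *Dcn* (-0.75) and *Postn* (-0.71) had values near those of the surface genes but standard errors of 0.307 and 0.282 and edgeR adjusted p of 0.0796 and 0.0729.

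**Figure D2:**
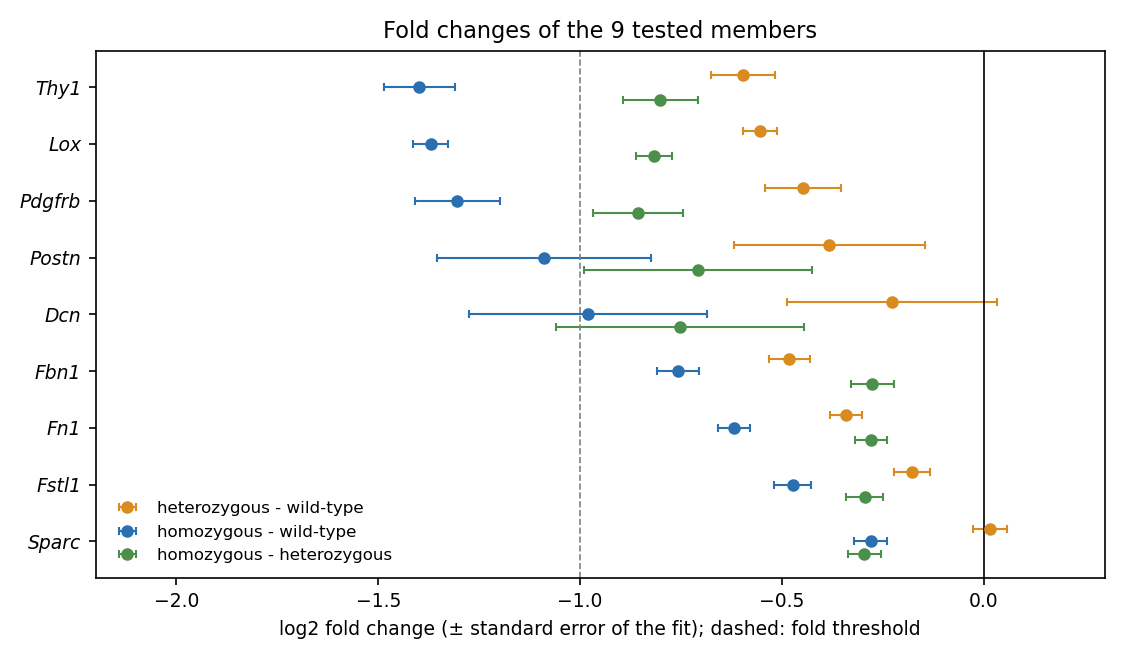
Log2 fold change (horizontal axis) of the 9 tested members in the 3 comparisons, with the standard error of the edgeR fit as bars and the fold threshold of -1 dashed. In the homozygous deletion against wild-type the values run from -1.40 for *Thy1* to -0.28 for *Sparc*, a span of 1.12, while standard errors run from 0.0394 to 0.294.

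The members did not fall by a common factor. In the homozygous deletion against wild-type, *Thy1*, *Lox* and *Pdgfrb* formed a group from -1.40 to -1.30, and *Fbn1*, *Fn1*, *Fstl1* and *Sparc* lay from -0.76 (*Fbn1*) to -0.28 (*Sparc*). Standard errors in these 7 were at most 0.106. *Postn* and *Dcn* lay between these ranges, with standard errors of 0.265 and 0.294. The summed level of the 10 members was 2720.0 and 2668.5 CPM in WT, 2194 and 2231 CPM in het and 1769.5 and 1763 CPM in homo libraries, and *Fn1* made up between 59.5% and 63.0% of it. The share of *Sparc* in this sum was 17.1% and 18.3% in wild-type and 22.6% and 21.9% in homo libraries. That of *Lox* went from 9.08% and 9.48% to 5.53% and 5.42%.

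Each member was also set against the summed level of 8 collagens that fibroblasts make (*Col1a1*, *Col1a2*, *Col3a1*, *Col5a1*, *Col5a2*, *Col6a1*, *Col6a2* and *Col6a3*). This sum was 1194 and 1168 CPM in WT, 827 and 772 CPM in het and 524 and 510.1 CPM in homo libraries. All 8 collagens were lower at an edgeR adjusted p under 0.05 in both deletions, with medians of -0.59 and -1.19 on the log2 scale. In homo cells they ran from -1.33 (*Col6a1*) to -0.86 (*Col5a1*). The log2 ratio to the sum differed between homo and WT libraries by -0.18 for *Lox*, -0.21 for *Thy1* and -0.13 for *Pdgfrb*. The largest gap between replicates was only somewhat smaller for *Lox* (0.13) and *Thy1* (0.18). For *Pdgfrb* the difference was less than the gap of 0.38 between its homo libraries. *Fbn1* was 0.43 higher relative to the collagens, *Fn1* 0.57, *Fstl1* 0.72 and *Sparc* 0.91. In these 4 the largest gap within a genotype was 0.16. The scarce members *Postn* (0.14), *Dcn* (0.22) and *Lum* (0.20) differed by less than the largest gap between their own replicates (0.52, 0.53 and 0.42). These ratios are descriptions and no test was run on them.

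**Figure D3:**
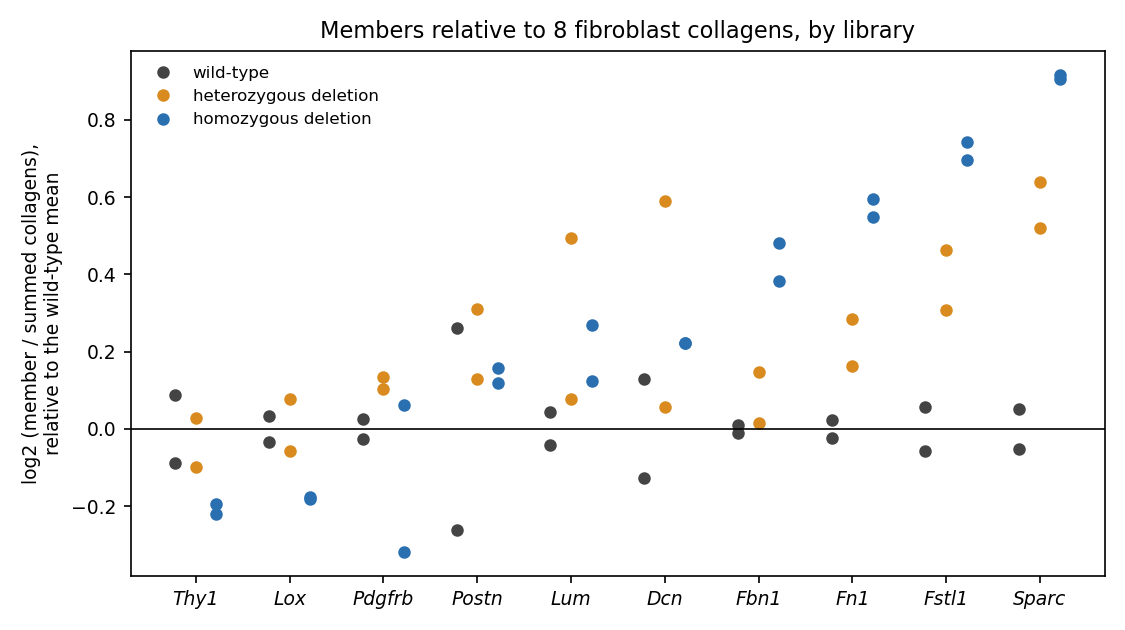
Log2 ratio of each member to the summed level of 8 fibroblast collagens (vertical axis), set to 0 at the wild-type mean, with 1 point per library. The homo libraries of *Sparc* lie on average 0.91 above wild-type and those of *Thy1* 0.21 below it. The largest gap between replicates of *Thy1* is 0.18.

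Lists of related genes were read from the same fit. Over 8 lists of other matrix, receptor and mesenchymal genes, 78 of 91 genes were tested. In the homozygous deletion 22 of the 78 were lower past both thresholds, where 1.86% of all tested genes were, and 0 higher. DESeq2 called 19, and 63 of the 78 were at an unadjusted p under 0.05 in edgeR. At an adjusted p alone 54 were lower and 1 higher (10.5% of all tested genes were lower and 10.9% higher), and the median log2 fold change was -0.62. In the heterozygous deletion 0 passed both thresholds with edgeR or DESeq2, where 0.124% of all tested genes were lower with edgeR. At an unadjusted p under 0.05 were 38. At an adjusted p alone 24 were lower and 4 higher (2.91% of all tested genes were lower and 2.23% higher), with a median of -0.17. The same shares are the background for the counts of single lists and markers below.

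The other small leucine-rich proteoglycans had a member far more abundant than *Dcn* and *Lum*. *Bgn* (biglycan) had 9990 and 9081 WT counts, 6196 and 6581 het counts and 3294 and 3862 homo counts, and changed by -1.25 ± 0.0433 in log2 (SE) between WT and homo cells. Of the 8 tested in that list 4 were lower at an adjusted p alone, *Prelp* with the lowest value (-1.27). *Nyx* had the highest value, 0.53 (edgeR adjusted p = 0.320), and *Kera* and *Epyc* had 0 counts in every library. All 4 relatives of *Lox* were lower at an adjusted p alone in the homozygous deletion, from *Loxl3* (-1.35, past both thresholds) to *Loxl4* (-0.44).

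Partners of fibrillin-1 in microfibrils and elastic fibers moved in part. Of 16 tested, 11 were lower at an adjusted p alone in the homozygous deletion and 6 of them past both thresholds, with *Ltbp2*, a microfibril-binding protein, lowest at -1.38. *Ltbp4*, which had the most reads of the list, was at 0.082 (edgeR adjusted p = 0.365), and *Fbn2*, the gene of the related fibrillin-2, at 0.30 (edgeR adjusted p = 0.245). Of 18 tested matricellular genes 14 were lower at an adjusted p alone and 4 past both thresholds. *Thbs1* (thrombospondin-1), with 30147 and 26121 wild-type counts, fell by 0.92 on the log2 scale, *Ccn5* was lowest at -1.44 and *Tnxb*, with at most 19 counts, highest at 0.86 (edgeR adjusted p = 0.159).

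In homo cells the median change was -0.32 in log2 for receptors of fibronectin and -0.47 for the PDGF genes. Among 8 receptor genes of fibronectin 4 were lower at an adjusted p alone in the homozygous deletion and 0 past both thresholds (5 at an unadjusted p under 0.05, 0 past both in DESeq2). *Itgb3*, an integrin chain, was lowest at -0.84. The shared chain *Itgb1*, with 20168 and 18418 wild-type counts, was at 0.090 (edgeR adjusted p = 0.128), and *Itga8* at 0.21 (0.265). All 4 PDGF ligand genes and *Pdgfra*, the other receptor, were lower at an adjusted p alone. *Pdgfra* fell by 1.07 and passed both thresholds, next to 1.30 for *Pdgfrb*, while the ligand *Pdgfa* fell by 0.33 and *Pdgfc*, the ligand with the most reads, by 0.34.

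Of 12 tested surface genes of fibroblasts 7 were lower and 1, *Nt5e*, higher (0.25, edgeR adjusted p = 0.0318) at an adjusted p alone in the homozygous deletion. *Cdh11*, a cadherin of mesenchymal cells, was lowest at -1.30, close to *Thy1*, and *Lrp1*, an endocytic receptor with the most reads of the list, was at -0.76. Of 7 tested mesenchymal transcription factors 5 were lower at an adjusted p alone. *Prrx1* fell by 1.29 and *Osr1*, with 20 and 19 wild-type counts, by 1.64, while *Twist1* was at -0.41 (edgeR adjusted p = 0.126).

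**Figure D4:**
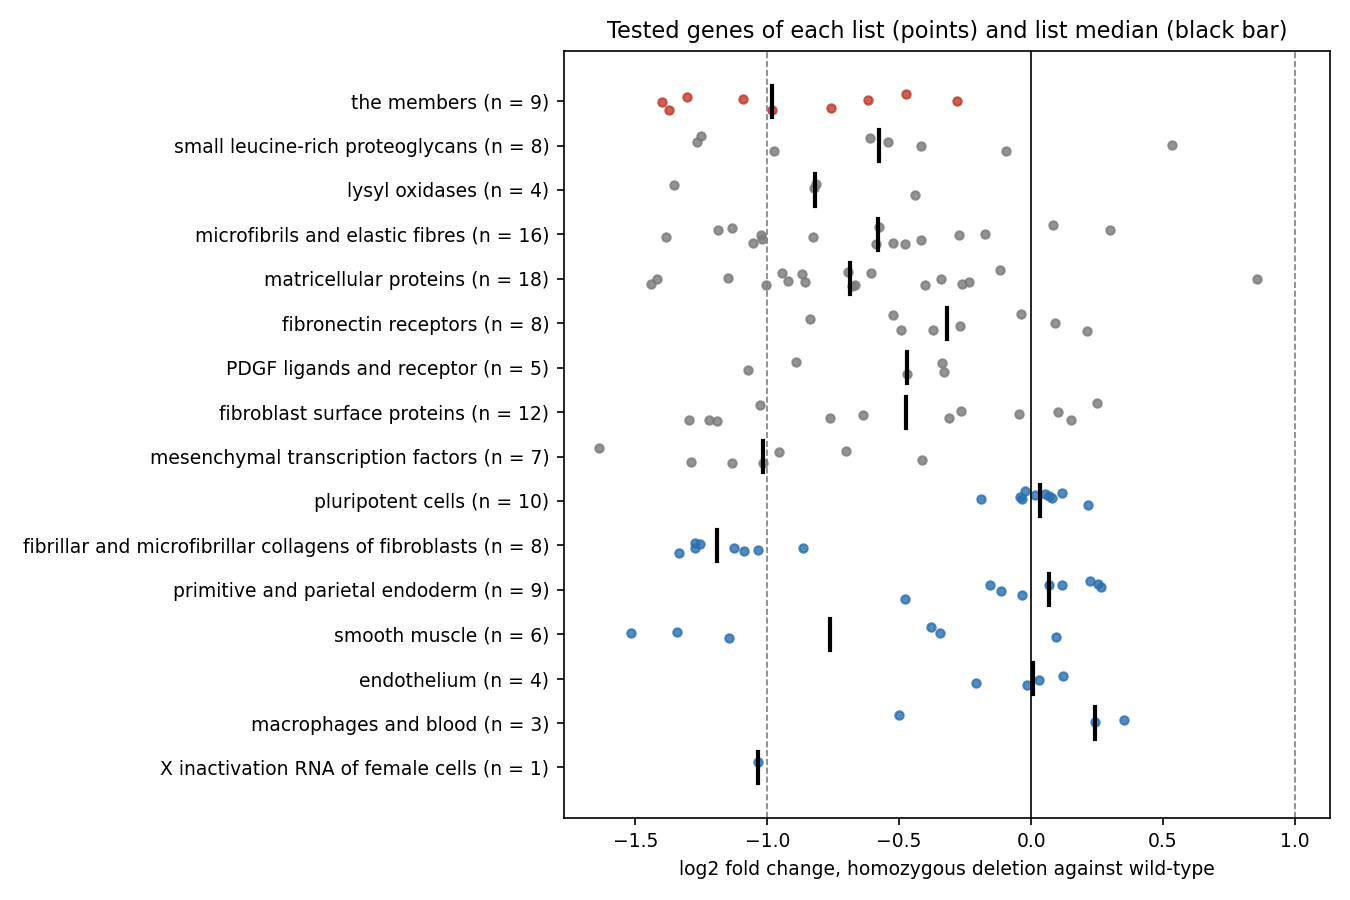
Log2 fold change in the homozygous deletion against wild-type (horizontal axis, dashed lines at -1 and 1) for the tested members (red), genes of the 8 related lists (grey) and cell type markers (blue), with list medians as black bars. The members' median is -0.98, that of the collagens -1.19 and that of the pluripotency genes 0.035.

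Markers of other cell types were read beside the members. The 10 pluripotency genes summed to 3360 and 3434 CPM in WT, 3114.5 and 3058 CPM in het and 3573 and 3388 CPM in homo libraries. In the homozygous deletion 1 of them was higher at an adjusted p alone (*Zfp42*, 0.22) and 1 lower (*Klf4*, -0.19), with a median of 0.035. *Pou5f1*, the one with the most reads, was at 0.055 (edgeR adjusted p = 0.445). Of the same genes 6 were lower in het cells at an adjusted p alone, with a median of -0.19 where the members' median was -0.38. The *Klf4* call was lost with DESeq2, and the 6 in het cells became 3 without WT replicate 1 and 2 without WT replicate 2 or het replicate 2. Smooth muscle genes, which fibroblasts in culture also express, summed to 341 and 356 CPM in wild-type and 191 and 185 in homo libraries, and 5 of 6 were lower at an adjusted p alone. *Acta2*, with the most reads, fell by 1.15 and *Actg2* by 1.52 in log2, while *Des* was at 0.096 (edgeR adjusted p = 0.579). Genes of primitive and parietal endoderm, a cell type that makes SPARC and fibronectin, summed to between 451 and 467 CPM in WT, 485 and 491 CPM in het and 452 and 457 CPM in homo libraries. Most of this sum came from *Lamb1* and *Col4a1*, with means of 263 and 149 CPM in WT, so it says little about the scarcer genes. Of the 9 endoderm genes tested 2 were lower at an adjusted p alone in the homozygous deletion (*Dab2* at -0.48, *Lamb1* at -0.16) and *Col4a1* was higher (0.22). The highest value was that of *Gata4*, 0.26 (edgeR adjusted p = 0.468). In het cells *Cubn*, an endocytic receptor, passed both thresholds in the other direction (1.28), with 59 and 44 WT counts, 113 and 122 het counts and 50 and 46 homo counts. *Gata4* (0.67, edgeR adjusted p = 0.0830) and *Gata6* (0.91, 0.126) did not pass there, and 2 of the 9 were below 0. Between the deletions *Gata6* (-1.03, edgeR adjusted p = 0.0302) and *Cubn* (-1.21, 3.90e-05) were lower past both thresholds, where 0.897% of all tested genes were. DESeq2 called 1 endoderm gene in that comparison.

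Endothelial genes summed to between 15.9 and 18.2 CPM, with *Emcn* at 0 or 1 count, and none of 4 tested changed in the homozygous deletion by edgeR (0 at an adjusted or unadjusted p under 0.05, 0 in DESeq2 past both thresholds). *Tek*, with the most reads of these, was at -0.015, and the others ran from -0.21 (*Kdr*) to 0.12 (*Vwf*). Genes of macrophages and blood summed to between 9.03 and 14.5 CPM, with *Adgre1* at 0 counts in every library, and *Cd68* was lower in the homozygous deletion (-0.50), while *Csf1r* was at 0.35 (edgeR adjusted p = 0.644). *Xist*, the RNA of the inactive X chromosome of female cells, was at 13.5 and 10.7 CPM in WT, 9.999 and 10.1 CPM in het and 6.63 and 5.26 CPM in homo libraries. In the homozygous deletion the 9 tested members were lower at an adjusted p alone, where 10.5% of all tested genes were. The same held for 8 of 8 collagens, 5 of 6 smooth muscle genes, 5 of 7 mesenchymal transcription factors and *Xist*. It held for 7 of 12 surface genes, 4 of 8 proteoglycans, 4 of 8 fibronectin receptors and 4 of 4 relatives of *Lox*. It also held for 11 of 16 microfibril, 14 of 18 matricellular and 5 of 5 PDGF genes. Of the other markers it held for 2 of 9 endoderm, 1 of 10 pluripotency, 1 of 3 macrophage and 0 of 4 endothelial genes. The part of a different share of feeder cell RNA in the members' values was not tested.

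The genes whose profile over the 6 libraries was most like the mean profile of the members were sought among 10760 non-member genes with at least 5 CPM on average. Likeness was the root mean square distance between log2 CPM profiles, each centred on its own mean. The mean profile stood at 0.46 and 0.38 (WT), 0.083 and 0.073 (het), and -0.51 and -0.50 (homo). The nearest gene was *Col4a5*, a collagen chain of basement membranes, at a distance of 0.0283, with 14.7 ± 0.574, 11.8 ± 0.152 and 7.55 ± 0.0693 CPM (SD, n = 2 each) in WT, het and homo cells. *Thbs1* followed at 0.0297, *Zeb1*, a transcription factor of mesenchymal cells, at 0.0328, *Tns1*, an actin-binding protein of focal adhesions, at 0.0350 and *Coch*, a secreted protein, at 0.0351. *Tnfaip2*, *Grem1* (a secreted BMP antagonist), *Mrc2* (a collagen uptake receptor), *Serpinb2* (a protease inhibitor) and *Npr2* (a natriuretic peptide receptor) completed the 10 nearest, up to 0.0564. Every member was farther from this profile, from 0.124 for *Lum* to 0.268 for *Sparc*. The 10 genes were picked as the nearest and the members by name, so this contrast follows from the choice. With Pearson correlation in place of distance 4 of the 10 genes were shared. The 10 genes are a description of 6 libraries and carry no test.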

How the data were processed

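Poly(A) RNA of 6 mESC libraries, 2 for each of 3 genotypes, was analyzed from 1 table of 55385 genes. Its values are whole-number read counts, not normalized by the authors. The submitters' processing notes name mm10/GRCm38, Trimmomatic 0.39, STAR 2.6.1d, SAMtools 1.9, featureCounts 1.6.4 and DESeq2 1.22.2, without stating their roles; the annotation release and the strand setting are not given in the sources used here. Genotypes and replicate numbers came from the sample titles.

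Genes that reached 10 counts in 2 or more libraries were fitted in edgeR 4.0.16 (TMM, quasi-likelihood test, R 4.3.3) over all 6 libraries, with Benjamini-Hochberg adjustment over 16951 genes. The standard error of a log2 fold change was the fold change over the square root of the F statistic. The fit was checked on simulated counts. The common biological coefficient of variation was 3.52%. TPM and positions used GENCODE M21 (GRCm38), in which lengths were found for 55144 genes. Same-numbered replicates did not deviate together (correlations across genes from -0.0944 to 0.0261). Each library was counted as 1 sample. Libraries sharing a genotype were not identical and varied beyond counting error (chi-square per degree of freedom 2.31 to 3.52). This does not show whether they came from separate cultures.

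The members, the gene lists and the tests were chosen with earlier results of these data known. The text names all members and, from each list, the gene with the highest level and the lowest and highest fold change in the homozygous deletion; *Fap*, *Tcf21*, *Kera*, *Epyc*, *Emcn*, *Adgre1*, *Col4a1*, *Cubn* and the other genes outside that rule were chosen after their values were seen. Summaries and figures used Python 3.11.15, pandas 2.3.3, scipy 1.17.1 and matplotlib 3.10.9. Alternatives were DESeq2 1.42.0, 2 other scalings, 2 other filters, only the libraries compared, the replicate block, robust dispersion and each library left out.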

Additional observations from a re-analysis of the deposited data

Results flagged for a closer look

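When homozygous and heterozygous libraries were tested directly, 7 members were lower in homozygous libraries (edgeR, adjusted p under 0.05 over all genes). Of all tested genes, 12.9% were lower at that threshold. *Pdgfrb* was lower in homozygous libraries by a log2 fold change of -0.86 (adjusted p = 8.72e-06), *Lox* of -0.82 (1.61e-10) and *Thy1* of -0.80 (2.05e-06). *Sparc* had -0.30 (2.19e-05), *Fstl1* -0.29 (7.35e-05), *Fn1* -0.28 (2.38e-05) and *Fbn1* -0.28 (0.000692). Both homozygous libraries lay below both heterozygous libraries for each of these 7 genes, a separation that 32.8% of all tested genes showed. Both deletions are measured against the same wild-type libraries, and the direct test contrasts the deletions alone but shares its estimate of the spread with those libraries. No member was examined for a library standing apart within a genotype, since 2 libraries are too few for that.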

How the results depend on the processing

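Of 378 values of the 9 tested members over 14 alternatives and 3 comparisons, 369 kept their direction and their side of the joint fold and p threshold. Of these, 8 crossed the adjusted p threshold alone (*Fstl1* in 3 and *Pdgfrb* in 2 for the heterozygous deletion, *Dcn* in 3 for the homozygous deletion). DESeq2 gave no adjusted p for *Postn* and *Dcn* in the heterozygous and direct comparisons, and these values are among the 369. In the heterozygous deletion, leaving out 1 library gave *Sparc* values from -0.020 to 0.052 and *Dcn* values from -0.57 to 0.061; *Sparc* was below 0 without wild-type replicate 1 and *Dcn* above 0 without heterozygous replicate 2, neither past a threshold. *Postn* in the homozygous deletion lost its call in 2 alternatives. *Dcn* passed both thresholds in the homozygous deletion with total counts only (-1.04) and without wild-type replicate 2 (-1.10) or homozygous replicate 1. Against the heterozygous deletion *Dcn* did so without heterozygous replicate 2 (-1.04) and *Pdgfrb* without homozygous replicate 2 (-1.04). Leaving out 1 library gave 3 to 5 members past both thresholds in the homozygous deletion, 0 in the heterozygous deletion and 0 to 1 between the deletions. At an adjusted p alone these ranges were 7 to 9, 4 to 6 and 7 to 8.

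The numbers of all genes past both thresholds were 28 in the heterozygous deletion, 362 in the homozygous deletion and 236 between them. DESeq2 gave 12, 212 and 65. Without a filter 49 were called in the heterozygous deletion, and with a filter of 1 CPM 137 between the deletions. With 1 library left out the ranges were 14 to 42, 274 to 420 and 170 to 387, with the highest value between the deletions without homozygous replicate 2 and the lowest in the heterozygous deletion without wild-type replicate 2 (without heterozygous replicate 2 it was 15). Scaling by total counts only turned 84 higher and 152 lower between the deletions into 66 and 213. With the replicate number as a block, 4, 0 and 0 members passed both thresholds in the homozygous, heterozygous and direct comparisons, and 9, 6 and 7 did at an adjusted p alone; the block changed no call of a member.

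Counts of the related lists and markers under the alternatives, added after seeing the data, stayed within 1.5 times in 590 of 630 cases. Depth limits *Lum*, *Dcn* and *Postn*.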

Other observations

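A few genes of the related lists went the other way in the heterozygous deletion. Of the 78 tested, 4 were higher than in wild-type at an edgeR adjusted p under 0.05, where 2.23% of all tested genes were. These 4 were named after their values were seen. *Pdgfb*, a ligand of the receptor that *Pdgfrb* encodes, was at 11.3 ± 0.247 CPM in wild-type and 16.2 ± 0.168 CPM in heterozygous cells (SD, n = 2 each) and rose by 0.52 ± 0.0974 in log2 (SE; edgeR adjusted p = 0.00238). In homozygous cells it was at 8.21 ± 1.41 CPM, lower than in wild-type by a log2 fold change of -0.47 (edgeR adjusted p = 0.00386), and the direct test between the deletions gave -0.99 (6.18e-07). *Nt5e*, an ectoenzyme that makes adenosine, was higher in both deletions, by 0.56 (edgeR adjusted p = 0.000107) and 0.25 (0.0318). *Eng*, a co-receptor for TGF-β, was 0.29 higher in heterozygous cells (0.0491) and at -0.045 in homozygous cells (0.771). *Ccn1*, a matricellular protein, was 0.21 higher in heterozygous and fell by 0.26 on the log2 scale in homozygous cells (0.00386 and 0.000105).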
